A study of Mus musculus with 4 samples.

Results

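Cholesterol and fatty acid synthesis was described through 29 genes of mouse fibroblasts, chosen by name: 16 enzymes that lead from acetyl-CoA to cholesterol, 6 genes that regulate or move sterols, and 7 fatty acid enzymes. They are 29 of 23366 gene symbols with an RNA-seq level. A total of 28 averaged 1 FPKM or more across libraries, as did 11640 genes in all. FPKM is the number of sequenced fragments scaled to transcript length and library total. Hmgcs1, the HMG-CoA synthase gene, is listed at 0 in every library, which can be a failed estimate, and it is not read as absence.

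The 4 libraries come from immortalized mouse embryonic fibroblasts, a line able to divide without limit, given Myc, MycN, a protein labelled Minimal Myc, or the empty vector. Each culture, vector included, was treated with adenoviral Cre, a recombinase that excises marked DNA. The series design presents the comparison as Myc-deleted cells set against cells that hold one of the Myc proteins, so the vector culture stands for deletion with nothing added. Harvest came after a recovery labelled 48, without a unit. Each group has 1 library, so no difference has a replicate check, no test was run, and a gene was called only where log2(FPKM + 1) differed by at least 2-fold. The promoter driving each added protein, and whether a culture came from 1 clone or many, are unstated in the labels. The libraries are bulk RNA, in which fewer cells of a type and less RNA per cell cannot be told apart.

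Cholesterol synthesis condenses acetyl-CoA into mevalonate, turns mevalonate into isoprenoid units up to farnesyl diphosphate, joins these into squalene and closes the ring to lanosterol, which a series of reductases, demethylases and isomerases makes into cholesterol. Fatty acid synthesis starts from the same cytosolic acetyl-CoA. Transcription of both branches is driven by the SREBP proteins, encoded by Srebf1 and Srebf2, which are held in the endoplasmic reticulum with their escort Scap by the Insig proteins while sterols are plentiful and are cut free in the Golgi when sterols run low. The Srebf2 protein mainly acts on sterol genes and the Srebf1 protein mainly on fatty acid genes. Fibroblasts make their own cholesterol and take more from lipoproteins in serum.

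The promoters of Idi1, Fasn, Ebp and Scap are shown because these genes differed by at least 2-fold in at least 1 comparison and lie in different steps of the 2 pathways and their control. They are RefSeq windows of build GRCm38.p6 from 250 bases before to 50 bases after the gene start, matched by symbol. Idi1 lies at chr13:8885356-8885655 on the plus strand, Fasn at chr11:120824498-120824797 on the minus strand, Ebp at chrX:8193463-8193762 on the minus strand and Scap, of whose 2 windows the first is shown, at chr9:110333038-110333337 on the plus strand. Capitals mark CCAAT, the box bound by NF-Y, a partner of SREBP at many sterol genes, on either strand (ATTGG when reversed), and CACGTG, the E-box bound by Myc with Max.
Idi1: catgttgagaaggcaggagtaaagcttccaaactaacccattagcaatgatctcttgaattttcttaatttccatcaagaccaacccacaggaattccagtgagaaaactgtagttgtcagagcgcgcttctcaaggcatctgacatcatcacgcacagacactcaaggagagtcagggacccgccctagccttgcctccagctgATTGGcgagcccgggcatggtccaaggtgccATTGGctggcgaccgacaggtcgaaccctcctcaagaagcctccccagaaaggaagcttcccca
Fasn: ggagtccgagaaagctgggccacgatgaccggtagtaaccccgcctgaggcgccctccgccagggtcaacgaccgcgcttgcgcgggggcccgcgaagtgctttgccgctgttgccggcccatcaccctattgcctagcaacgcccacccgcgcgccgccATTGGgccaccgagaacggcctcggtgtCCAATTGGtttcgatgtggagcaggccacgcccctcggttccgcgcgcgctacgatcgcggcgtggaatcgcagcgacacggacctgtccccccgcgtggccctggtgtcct
Ebp: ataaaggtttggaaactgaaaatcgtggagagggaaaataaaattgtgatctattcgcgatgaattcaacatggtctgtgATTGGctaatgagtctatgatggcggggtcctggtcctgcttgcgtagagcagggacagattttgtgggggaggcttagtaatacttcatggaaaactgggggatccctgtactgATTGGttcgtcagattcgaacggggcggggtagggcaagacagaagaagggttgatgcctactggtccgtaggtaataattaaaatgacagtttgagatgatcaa
Scap: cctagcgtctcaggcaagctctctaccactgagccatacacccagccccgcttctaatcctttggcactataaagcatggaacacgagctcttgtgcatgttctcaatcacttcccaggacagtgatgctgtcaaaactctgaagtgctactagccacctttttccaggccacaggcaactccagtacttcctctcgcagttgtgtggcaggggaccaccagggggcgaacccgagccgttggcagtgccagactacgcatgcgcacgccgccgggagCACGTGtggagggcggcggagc
With the gene start counted as 1 and the base before it as -1, ATTGG begins at -45 and -14 in Idi1 and at -170 and -55 in Ebp. In Fasn the 2 forms share bases, with CCAAT at -62 and ATTGG at -59, and a further ATTGG begins at -90. The CACGTG of Scap begins at 29, inside the transcribed part.

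A window was found for 23 of the 29 genes, and Fdps, Fdft1, Sqle, Stard4, Scd1 and Scd2 had none. CCAAT on either strand was present for 19 of 23 (82.6%), against 41.1% of the 27025 genes with a window. CACGTG was present for 4 of 23 (17.4%), namely Hsd17b7, Dhcr7, Scap and Insig1, against 8.09% of all genes. TCACNCCAC, a core of the sterol regulatory element bound by SREBP, searched on both strands, was present for Hmgcs1 alone (4.35%), against 1.44% of all genes. A gene with several windows was counted once if any held the letters. These shares describe letters in short windows, and a window without a match says nothing about a factor.

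Labels and library make-up were checked first. Myc stood at 141 FPKM in the Myc library, 4.36 in MycN, 32.6 in Minimal Myc and 22.2 in vector, and Mycn at 0.275, 178, 95.9 and 0.390 FPKM in that order. The vector culture was thus not without Myc transcript. Over the 11640 genes the median difference of log2(FPKM + 1) was 0.47 for Myc against vector, 0.42 for MycN against vector and 0.47 for Minimal Myc against vector, so most genes stood above vector. Small RNA genes held 12.3% of summed FPKM in Myc, 17.0% in MycN, 10.1% in Minimal Myc and 41.3% in vector, and their part in that shift was not tested. Of 11 fibroblast markers, 10 reached 1 FPKM in some library, with sums of 3559, 2612, 3364 and 2712 FPKM in the same order, and Lum stayed below 1. The 7 epithelial markers stayed below 1 FPKM. Of 7 leukocyte markers, 3 reached 1 FPKM in some library (Cd68, Csf1r and Lyz2), while Ptprc, the pan-leukocyte marker, did not. Of 6 hepatocyte markers, 1 reached it and Alb, the albumin gene, did not. That 1 was Cyp2e1, at 9.10 FPKM in Myc, 10.1 in MycN, 5.60 in Minimal Myc and 5.83 in vector.

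Most of the 28 measured genes were lowest in vector, and their order differed by branch between the Myc proteins. Vector held the lowest level of 19 of 28 genes (67.9%), against 68.0% of all genes tested, so this share was near the background. MycN held the lowest level of 8 of 28 (28.6%), against 11.8% of all genes. The highest level stood in Myc for 13 of 28 genes (46.4%, against 29.6% of all genes), in MycN for 4 (14.3%, against 28.98%), in Minimal Myc for 10 (35.7%, against 35.8%) and in vector for 1 (3.57%, against 5.53%). Minimal Myc held the highest level of 7 of 15 sterol enzymes and of 0 of 7 fatty acid enzymes, while Myc held it for 6 of 15 and 5 of 7. These orders hold for unscaled FPKM. In the authors' scaled table, which multiplies Myc by the largest factor, Myc held the highest level of 26 of 28 genes and Minimal Myc that of the other 2, Nsdhl and Ebp, while vector held the lowest of 26.

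**Figure D1:**
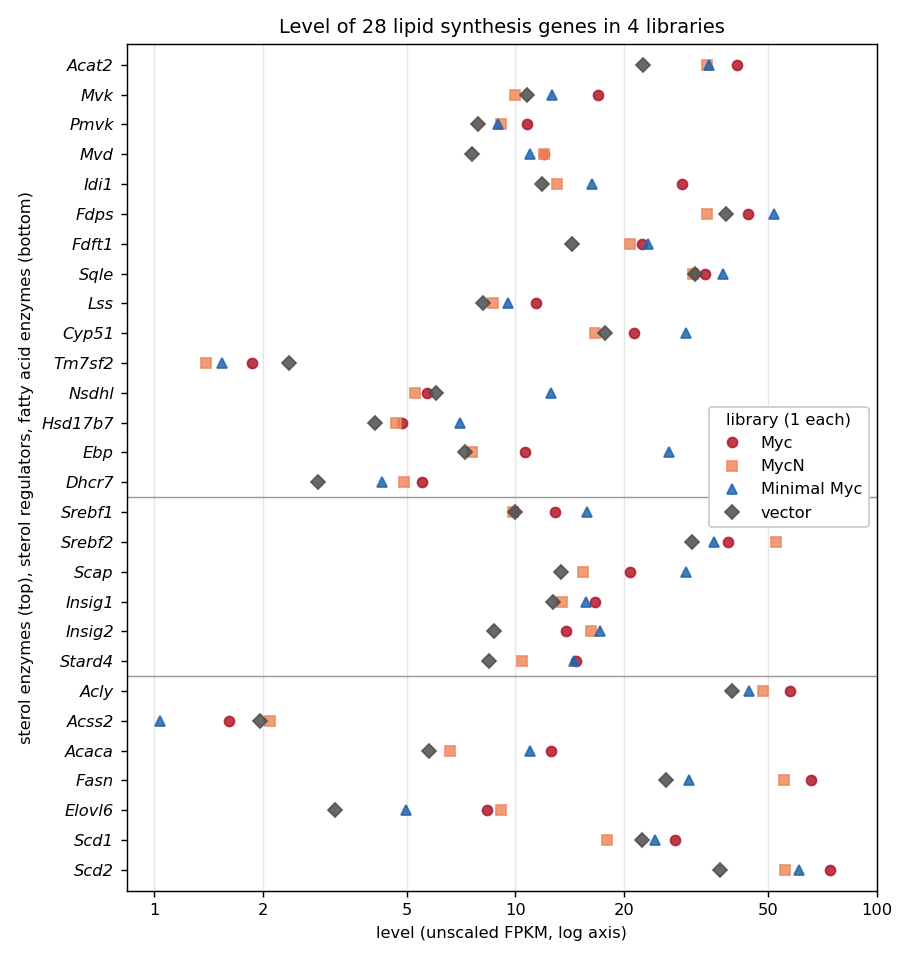
Level of the 28 measured genes in unscaled FPKM on a log axis, 1 point per library (Myc, MycN, Minimal Myc and vector), with sterol enzymes in pathway order at the top, sterol regulators in the middle and fatty acid enzymes at the bottom. Ebp and Nsdhl show the Minimal Myc point apart at 26.5 and 12.6 FPKM, and Fasn shows Myc and MycN (65.9 and 55.2 FPKM) apart from Minimal Myc and vector (30.3 and 26.1 FPKM).

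In the Myc library the fatty acid branch had the highest median above vector, and Fasn, the isomerase gene Idi1 and Elovl6 stood furthest above vector. Fasn, Elovl6 and Idi1 were called higher (3 of 28 genes) and 0 lower, against 11.2% higher and 1.56% lower of all genes tested. The share of genes called higher was therefore near the background. The median difference was 0.99 for fatty acid enzymes, 0.48 for regulators and 0.44 for sterol enzymes, against 0.47 for all genes. Acaca and Scd2 lay just under the 2-fold limit, at 0.999 and 0.991. The branch was not uniform, as 2 of 7 fatty acid enzymes lay below the all-gene median, Acss2 at -0.18 and Scd1 at 0.29.

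In the MycN library only the fatty acid genes Fasn and Elovl6 were called higher (2 of 28) and 0 lower, against 7.65% higher and 1.86% lower of all genes tested. Again the share was near the background. Sterol enzymes had a median difference of 0.08 against vector, regulators 0.23 and fatty acid enzymes 0.27, each below the 0.42 of all genes. A total of 11 of 15 sterol enzymes lay below the all-gene median, and 6 of 15 lay below vector itself, against 18.2% of all genes. That count of 6 holds for unscaled FPKM. In the authors' scaled table vector held the lowest level of 14 of 15, and MycN that of Tm7sf2.

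Regulators were the branch with the highest median above vector in the Minimal Myc library. Ebp and Scap were called higher (2 of 28) and 0 lower, against 13.6% higher and 1.68% lower of all genes tested. The members' share was below the background. Regulators had a median difference of 0.66, sterol enzymes 0.46 and fatty acid enzymes 0.21, against 0.47 for all genes. Fasn, called higher in the other comparisons with vector, stood here at percentile 28.3 of all genes tested.

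**Figure D2:**
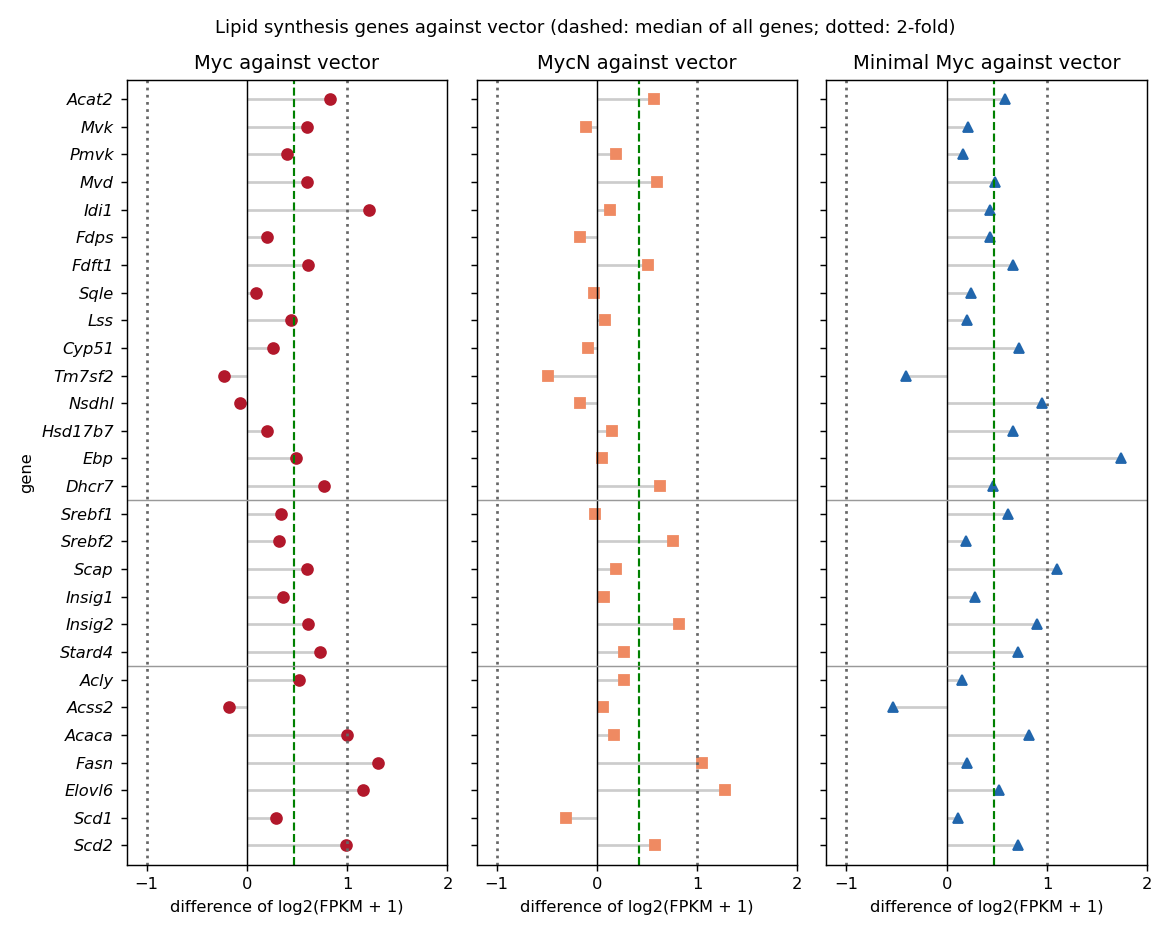
Difference of log2(FPKM + 1) from vector for each of the 28 genes, with a panel each for Myc, MycN and Minimal Myc, the dashed line at the median of all genes (0.47, 0.42 and 0.47) and dotted lines at 2-fold. Points past the right dotted line are Idi1, Fasn and Elovl6 for the Myc library, Fasn and Elovl6 for MycN, and Ebp and Scap for the Minimal Myc library.

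The counts depend on how libraries are scaled. Centred on the median difference of all genes, 0 of 28 genes were called higher and 0 lower in Myc against vector, with 1.87% and 4.38% of all genes. The same 0 and 0 held for MycN, with 1.86% and 4.19%. In Minimal Myc, Ebp was called higher and Acss2 lower, with 3.71% and 4.68% of all genes. In the authors' scaled table, in which each library is multiplied by 1 factor derived from NanoString counts (2.04 for Myc, 1.30 for MycN, 1.28 for Minimal Myc and 1 for vector), 25 of 28 genes were called higher in Myc, against 78.5% of all genes, and 0 lower, against 0.498%. For MycN the counts were 4 and 0, against 27.4% and 1.25%, and for Minimal Myc 9 and 0, against 33.7% and 1.05%. None of the 29 genes is among the 30 genes read by NanoString.

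The enzymes that lead from acetyl-CoA to farnesyl diphosphate were highest in Myc, apart from Fdps and Mvd. Idi1, which isomerizes isopentenyl diphosphate, stood at 28.8 FPKM in Myc, 13.1 in MycN, 16.2 in Minimal Myc and 11.8 in vector. In unscaled FPKM Myc alone was high, and the other 3 libraries lay close together. The difference from vector was 1.22 in Myc (2.44-fold in FPKM), at percentile 94.9 of all genes tested, against 0.14 in MycN and 0.43 in Minimal Myc. Chromosome 13, which holds Idi1, had the highest median of the chromosomes in Myc against vector, at 0.75. Less that median, Idi1 stood at 0.47. Its 4 measured neighbours within 400 kb had a median of 0.70 there, and 1 of them exceeded it.

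Acat2, the cytosolic thiolase that makes acetoacetyl-CoA, was at 41.0 FPKM in Myc, 34.0 in MycN, 34.3 in Minimal Myc and 22.6 in vector. Mvk, mevalonate kinase, was at 16.9, 9.95, 12.7 and 10.8 FPKM in that order, so MycN lay below vector in unscaled FPKM. The next kinase, Pmvk, was at 10.8 FPKM in Myc, 9.14 in MycN, 8.95 in Minimal Myc and 7.89 in vector. All 3 were highest in Myc, by differences from vector of 0.83, 0.60 and 0.40. Mvd, the decarboxylase that yields isopentenyl diphosphate, was at 12.0 FPKM in Myc, 12.0 in MycN, 10.99 in Minimal Myc and 7.60 in vector. Fdps, farnesyl diphosphate synthase, was at 44.1, 33.8, 51.9 and 38.1 FPKM in that order, with Minimal Myc highest and MycN lowest in unscaled FPKM. In GENCODE M21, 77.4% of the exonic bases of Fdps are shared with Gm43738 on the same strand, so its value may hold reads of both.

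From squalene onward, 6 of 9 enzymes were highest in Minimal Myc in unscaled FPKM, and 2 of 9 (Nsdhl and Ebp) in the authors' scaled table. Fdft1, squalene synthase, was at 22.4 FPKM in Myc, 20.8 in MycN, 23.3 in Minimal Myc and 14.3 in vector. In unscaled FPKM vector was the low library, and the other 3 lay close together. Of its exonic bases, 20.9% are shared with Ctsb on the opposite strand, which stood at 123, 202, 133 and 125 FPKM, and the labels do not say whether strand was used in counting. Sqle, squalene epoxidase, a rate-limiting step, was at 33.5 FPKM in Myc, 30.9 in MycN, 37.4 in Minimal Myc and 31.5 in vector. The 4 libraries lay close together, with differences from vector of 0.09 for the Myc library, -0.02 for MycN and 0.24 for Minimal Myc. Lss, which closes the sterol ring, was at 11.4, 8.67, 9.53 and 8.15 FPKM in that order.

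Cyp51, the lanosterol demethylase, was at 21.3 FPKM in Myc, 16.6 in MycN, 29.7 in Minimal Myc and 17.6 in vector. Hsd17b7, a ketosteroid reductase of the same stage, was at 4.86, 4.66, 7.03 and 4.10 FPKM in that order. In both, in unscaled FPKM, Minimal Myc was high and the other libraries lay close together, with a difference from vector of 0.72 and 0.66 in Minimal Myc. In the authors' scaled table Myc was highest in both. Nsdhl, the sterol dehydrogenase that acts with Hsd17b7, was at 5.71 FPKM in Myc, 5.27 in MycN, 12.6 in Minimal Myc and 6.03 in vector. Ebp, the sterol isomerase, was at 10.6, 7.56, 26.5 and 7.26 FPKM in that order. Minimal Myc stood far above the others in both genes. The difference of Ebp from vector in Minimal Myc was 1.74 (3.66-fold in FPKM), at percentile 97.6 of all genes tested, and that of Nsdhl was 0.95.

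Other late enzymes did not follow them. Dhcr7, which makes cholesterol in the last step of a branch of the pathway, was at 5.53 FPKM in Myc, 4.92 in MycN, 4.26 in Minimal Myc and 2.84 in vector. Tm7sf2, a sterol reductase, was at 1.87, 1.39, 1.54 and 2.36 FPKM in that order. In unscaled FPKM it was the only one of the 28 genes highest in vector. In the authors' scaled table it stood at 3.81 in Myc and 2.36 in vector. Its level is low enough that the added 1 FPKM understates its ratios. Within a library, Ebp over Dhcr7 was 1.92 in Myc, 1.54 in MycN, 6.22 in Minimal Myc and 2.56 in vector, a ratio that no scaling of a library can move.

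Between Minimal Myc and Myc the values before and after squalene differed in median. Minimal Myc against Myc had a median of -0.25 over the 6 measured enzymes up to farnesyl diphosphate, with 5 of 6 lower, and 0.16 over the 9 from squalene onward, with 6 of 9 higher. The median of all genes was -0.03, and 47.3% of them were higher. Nsdhl and Ebp were called higher, at 1.02 and 1.24 (2 of 28 genes, against 4.48% of all genes tested), and Fasn was called lower, at -1.098 (1 of 28, against 2.16%). The split at squalene was chosen after the values were seen, and without the X-linked Nsdhl and Ebp the later median was 0.05, with 4 of 7 higher.

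MycN against Myc was lower in 23 of 28 genes and in 14 of 15 sterol enzymes, against 56.4% of all genes, with a median of -0.26 over the sterol enzymes against -0.06 for all genes. Idi1 was called lower, at -1.08 (1 of 28, against 2.74% of all genes tested), and 0 were called higher, against 1.95%. Acaca and Mvk came next, at -0.83 and -0.71. Minimal Myc against MycN was higher in 20 of 28, against 53.3% of all genes, with Ebp at 1.69 and Nsdhl at 1.11 called higher (2 of 28, against 6.94%), and 0 called lower, against 3.69%. These comparisons share libraries with each other and with those against vector.

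**Figure D3:**
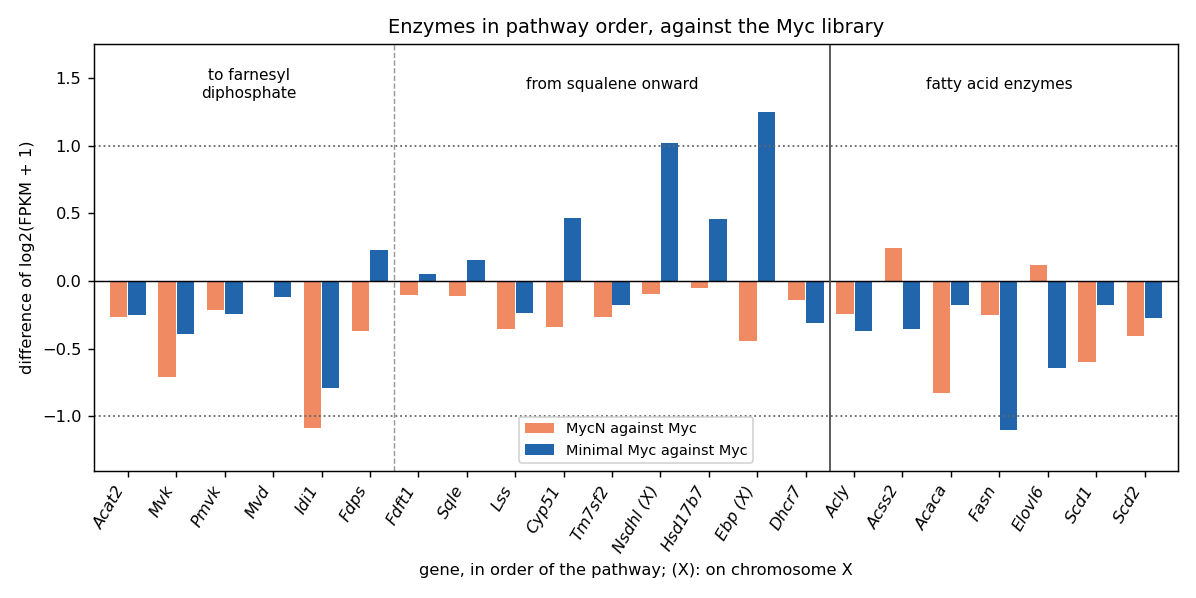
Difference of log2(FPKM + 1) from the Myc library for MycN and Minimal Myc, 1 bar per gene and library, for the 15 measured sterol enzymes and the 7 fatty acid enzymes in order of the pathway, with dotted lines at 2-fold. Minimal Myc bars lie mostly below 0 before squalene, lie above 0 at Cyp51, Nsdhl, Hsd17b7 and Ebp, and lie below 0 for all 7 fatty acid enzymes.

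Both late enzymes that stood out in Minimal Myc lie on chromosome X, and the X-linked genes as a whole were high in that library. The 331 measured X-linked genes had a median difference of 1.08 in Minimal Myc against vector, the highest of the 20 chromosomes placed, against 0.46 for 10447 autosomal genes. Of them, 188 (56.8%) were at least 2-fold higher. In Myc against vector the X median was 0.49, and in MycN against vector 0.29. Less the X median, Nsdhl stood at -0.13 and Ebp at 0.66 in Minimal Myc against vector.

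Close neighbours showed the same shift. Within 400 kb of Ebp, 14 other measured genes had a median difference of 1.03 in Minimal Myc against vector (0.37 to 1.55), and 9 of them were at least 2-fold higher. Ebp lay above all 14. The only measured neighbour of Nsdhl in such a window stood at 1.83. What part the level of the whole chromosome has in the values of Ebp and Nsdhl was not tested. With each gene set against the median of its own chromosome, a comparison added after the data were seen, 0 of the lipid synthesis genes were called higher in Minimal Myc against vector. The share of all genes called in that setting is not given, so this count has no background beside it. Chromosomes were taken from GRCm38.p6, for 92.6% of the genes tested.

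**Figure D4:**
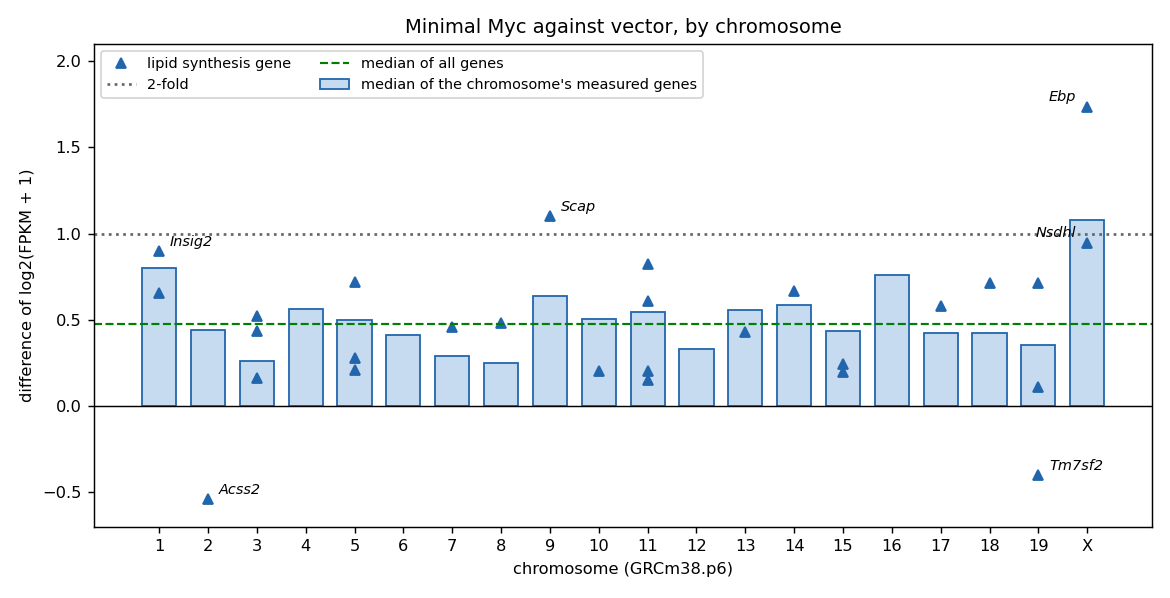
Minimal Myc against vector by chromosome: bars give the median difference of log2(FPKM + 1) of all measured genes of each chromosome, triangles the 28 lipid synthesis genes, the dashed line the median of all genes and the dotted line 2-fold. Chromosome X has the highest bar, at 1.08, with Nsdhl (0.95) below it and Ebp (1.74) above it.

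Among the regulators, Scap stood furthest above vector in Minimal Myc, and in unscaled FPKM Srebf2 was highest in MycN. Scap, the sterol-sensing escort of SREBP, stood at 20.8 FPKM in Myc, 15.4 in MycN, 29.7 in Minimal Myc and 13.3 in vector. In unscaled FPKM Minimal Myc was at the top, and in the scaled table Myc was. The difference from vector was 1.0997 in Minimal Myc (2.23-fold in FPKM), at percentile 89.9, and less the median of chromosome 9 it was 0.46. The 8 measured neighbours within 400 kb had a median of 0.74, of which 2 were at least 2-fold higher.

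Srebf2 stood at 38.7 FPKM in Myc, 52.7 in MycN, 35.3 in Minimal Myc and 30.7 in vector, and Srebf1 at 12.9, 9.87, 15.8 and 10.0 FPKM in that order. In unscaled FPKM MycN had the highest Srebf2 and the lowest Srebf1, and Minimal Myc the highest Srebf1. In the authors' scaled table Myc had the highest level of both and vector the lowest. Srebf2 over Srebf1 within a library was 3.002 in Myc, 5.34 in MycN, 2.24 in Minimal Myc and 3.07 in vector. None of these differences from vector reached 2-fold, and the largest was 0.76, for Srebf2 in MycN.

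Insig1, an SREBP target as well as a brake on SREBP, was nearly level in unscaled FPKM, at 16.6 in Myc, 13.4 in MycN, 15.6 in Minimal Myc and 12.7 in vector. In the authors' scaled table it stood at 33.8, 17.5, 20.1 and 12.7 in that order. Insig2, the second such brake, was at 13.8, 16.2, 17.1 and 8.71 FPKM in that order. Vector was the low library for Insig2, and Insig2 over Insig1 was 0.833 in Myc, 1.202 in MycN, 1.09 in Minimal Myc and 0.686 in vector. Stard4, a soluble sterol carrier, was at 14.7 FPKM in Myc, 10.4 in MycN, 14.52 in Minimal Myc and 8.46 in vector.

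The fatty acid enzymes were the branch highest in Myc. Fasn, fatty acid synthase, stood at 65.9 FPKM in Myc, 55.2 in MycN, 30.3 in Minimal Myc and 26.1 in vector. Myc and MycN were high, and Minimal Myc lay close to vector. The difference from vector was 1.30 in Myc (2.52-fold), 1.05 in MycN (2.11-fold) and 0.21 in Minimal Myc (1.16-fold). Its 28 measured neighbours within 400 kb had medians of 0.61, 0.74 and 0.21 in the same comparisons, and Fasn was exceeded by 1 of them for the Myc library, by 5 for MycN and by 14 for Minimal Myc.

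Elovl6, which lengthens the product of Fasn, showed the same order of pairs, at 8.33 FPKM in Myc, 9.12 in MycN, 4.99 in Minimal Myc and 3.17 in vector. The difference from vector was 1.16 for the Myc library, 1.28 for MycN and 0.52 for Minimal Myc, on a scale that understates ratios at such levels (2.63-fold, 2.88-fold and 1.57-fold in FPKM). Its 3 measured neighbours within 400 kb had medians of 1.42, 0.98 and 0.57 in the same comparisons. Elovl6 was exceeded by 2 of them for the Myc library, by 0 for MycN and by 3 for Minimal Myc. Acaca, the carboxylase that makes malonyl-CoA for Fasn, went another way, at 12.5 FPKM in Myc, 6.59 in MycN, 10.9 in Minimal Myc and 5.76 in vector. Here Myc and Minimal Myc were high and MycN lay close to vector. Fasn over Acaca within a library was 5.27 in Myc, 8.38 in MycN, 2.77 in Minimal Myc and 4.54 in vector.

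Acly, which makes cytosolic acetyl-CoA from citrate, was at 57.4 FPKM in Myc, 48.3 in MycN, 44.3 in Minimal Myc and 39.8 in vector. Acss2, which makes it from acetate, was at 1.61, 2.09, 1.04 and 1.96 FPKM in that order, low in all 4. Scd1 and Scd2 are paralogous desaturases that place the double bond in stearoyl-CoA, and reads they share could be split between them. Scd2 stood at 74.2 FPKM in Myc, 55.7 in MycN, 61.1 in Minimal Myc and 36.8 in vector, and Scd1 at 27.6, 17.9, 24.3 and 22.4 FPKM in that order. In unscaled FPKM vector was low for Scd2 but not for Scd1, while in the authors' scaled table it was lowest for both. Scd2 over Scd1 was 2.69 in Myc, 3.11 in MycN, 2.52 in Minimal Myc and 1.65 in vector.

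Summed over the branch, fatty acid enzymes came to 248 FPKM in Myc, 195 in MycN, 177 in Minimal Myc and 136 in vector, and sterol enzymes to 271, 213, 287 and 193 FPKM in that order. Their ratio within a library was 0.915 in Myc, 0.916 in MycN, 0.616 in Minimal Myc and 0.705 in vector. The ratio, which scaling a library leaves as it is, was lowest in Minimal Myc. The order of the sterol sums was not kept in the authors' scaled table, with 552 in Myc, 277 in MycN, 369 in Minimal Myc and 193 in vector. All 7 fatty acid enzymes were lower in Minimal Myc than in Myc, against 52.6% of all genes. Their median there was -0.35, against -0.03 for all genes. Over 9 fat cell markers the levels summed to 30.0 FPKM in Myc, 65.6 in MycN, 27.05 in Minimal Myc and 16.4 in vector, of which Fabp4 made 53.0 in MycN. Lpl, the next most abundant, had another order, at 19.7 FPKM in Myc, 8.12 in MycN, 15.7 in Minimal Myc and 8.03 in vector. The remaining markers that reached 1 FPKM, Retn and Pparg, were like Fabp4 highest in MycN, at 2.62 and 1.57 FPKM. Of the 9, 4 reached 1 FPKM in some library, while Adipoq and Plin1, which define fat cells, stayed at or below 0.0727 and 0.0516. The part of such cells in the fatty acid values was not tested.

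Other genes of the pathways gave a setting for these values. Mbtps2, an X-linked protease that frees SREBP, was at 10.7 FPKM in Myc, 7.49 in MycN, 8.12 in Minimal Myc and 4.38 in vector. It was highest in Myc, as Idi1 and Mvk were, with a difference from vector of 1.12 in that library.

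Of 11 further fatty acid genes, 2 were at least 2-fold higher in Myc against vector, 0 in MycN and 1 in Minimal Myc, with none lower, beside 11.2%, 7.65% and 13.6% of all genes. Elovl5, an elongase of polyunsaturated fatty acids, was at 35.1 FPKM in Myc, 31.8 in MycN, 31.2 in Minimal Myc and 16.6 in vector. Fads2, a desaturase of the same route, was at 30.8, 23.8, 27.2 and 14.8 FPKM in that order. Acsl4, an X-linked acyl-CoA synthetase that favours polyunsaturated fatty acids, was at 22.3 FPKM in Myc, 11.5 in MycN, 48.2 in Minimal Myc and 19.0 in vector. Of these 3, Acsl4 was the one highest in Minimal Myc and lowest in MycN.

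Of 9 measured genes of cholesterol uptake, storage and export, 1 was at least 2-fold higher in Myc against vector, 1 in MycN and 0 in Minimal Myc, with none lower, beside 11.2%, 7.65% and 13.6% of all genes. These counts are near the background. Abca1, a cholesterol exporter, was at 2.21 FPKM in Myc, 0.509 in MycN, 0.889 in Minimal Myc and 0.541 in vector. Mylip, a ligase that marks the LDL receptor for breakdown, was at 4.07, 6.81, 4.20 and 2.54 FPKM in that order. Scarb1, the HDL receptor, was at 48.7 FPKM in Myc, 42.6 in MycN, 45.5 in Minimal Myc and 24.998 in vector. Abca1 was below 1 FPKM in the other 3 libraries and passed the filter through Myc alone, so its count in Myc is no result about the list. MycN was high for Mylip, and vector low for Scarb1.

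Of 4 oxysterol genes, 2 were measured. Ch25h, an enzyme that hydroxylates cholesterol to an oxysterol known to hold back SREBP release and which interferon induces, was at 0.433 FPKM in Myc, 0.307 in MycN, 10.1 in Minimal Myc and 0.142 in vector. It passed the filter through Minimal Myc alone, where the difference from vector was 3.28, so that this gene was bound to differ once kept. Hsd3b7, which acts further on oxysterols, was at 5.59, 3.30, 3.93 and 4.29 FPKM in that order. In the same library Insig1 and Sqle, whose transcription SREBP drives, differed from vector by 0.28 and 0.24, below the 0.47 of all genes.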

How the data were processed

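RNA-seq of 4 bulk libraries, 1 per group, was analysed from 2 deposited tables of FPKM, computed by the authors. Build mm9, Cufflinks 2.2.0 and TopHat2 2.0.11 are listed, without their roles, per the submitters' processing notes. In the second table the authors had multiplied each library by a factor from NanoString counts. The unscaled table was used here, and the other as an alternative. FPKM keep no read totals, so depth is unknown and no counting interval can be given. Rows of 1 symbol were reduced to 1 value, NanoString rows were left out, and only genes averaging 1 FPKM or more were kept. Each difference is that of log2(FPKM + 1), which understates the change of low genes. As every group is a lone library, nothing was tested. A gene was called at 2-fold or more. The computation (Python 3.11.15, pandas 2.3.3, numpy 2.4.6, matplotlib 3.10.9) was tested on simulated data. The members and lists were chosen with earlier results of these data known. All members are described, and from each other list those named were among the largest differences from vector. Some genes of the further sterol list are not reported here. Promoters are RefSeq windows matched by symbol.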

Additional observations from a re-analysis of the deposited data

How the results depend on the processing

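No paired analysis was possible because each group has 1 library, so no library could be left out either. Depth is unknown, and no spread between cultures can be given. The NanoString alternative was not run, since 0 of the 29 genes are among the 30 genes it read. The counts against vector depended on how libraries were scaled; why the scalings differ was not tested. Of 168 differences (28 genes in 6 comparisons), the number that crossed 2-fold was 45 in the authors' scaled table, 7 centred on the median of all genes, 10 rescaled to the same total without small RNA genes, 12 centred on the chromosome, 3 with a pseudocount of 0.1, and 0 with the highest row per gene or no filter. Centring on the chromosome and leaving out X-linked genes were chosen after seeing the data.

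With a pseudocount of 0.1, 5 genes were called higher in Myc against vector, Acaca and Scd2 joining the others. In the authors' scaled table the genes called higher against vector numbered 25 in the Myc library, 4 in MycN and 9 with Minimal Myc. There MycN against Myc had 9 genes lower, and Minimal Myc against Myc had 0 higher and 5 lower. Centred on the median of all genes, 0 genes of Myc, 0 of MycN and 1 of Minimal Myc were called higher than in vector, and 1 of Minimal Myc lower. Rescaled without small RNA genes, the numbers called higher were 0, 0 and 1. MycN against Myc then had 0 lower, Minimal Myc against Myc 1 higher, and Minimal Myc against MycN 1 higher and 1 lower. Centred on the chromosome, 0, 1 and 0 were called higher against vector, MycN against Myc had 0 lower, Minimal Myc against Myc 0 higher, and Minimal Myc against MycN 0 higher and 1 lower. Among these alternatives, shares of all genes are given only for the scaled table and the all-gene centring, each against vector. The other counts have no such share beside them and are not read as results about the members.

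Median differences from vector are given for sterol enzymes, regulators and fatty acid enzymes in turn. In the scaled table they were 1.41, 1.47 and 1.97 for Myc, 0.42, 0.58 and 0.65 for MycN, and 0.79, 1.004 and 0.56 for Minimal Myc. Centred on all genes they were -0.036, 0.0084 and 0.52 for Myc, -0.34, -0.19 and -0.14 for MycN, and -0.017, 0.19 and -0.27 for Minimal Myc. Rescaled without small RNA genes they were -0.18, -0.15 and 0.33 for Myc, -0.33, -0.19 and -0.17 for MycN, and -0.14, 0.033 and -0.46 for Minimal Myc. Centred on the chromosome they were 0.00024, 0.061 and 0.40 for Myc, -0.33, 0.0041 and -0.16 for MycN, and -0.099, 0.081 and -0.24 for Minimal Myc.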
